A study of Mus musculus with 99 samples.

Results

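Serotonin receptor genes were followed in 5 brain regions of juvenile mice whose mothers had or had not drunk fentanyl. The set comprised 10 genes chosen by name: Htr1a, Htr1b, Htr1d, Htr1f, Htr2a, Htr2c, Htr3a, Htr4, Htr5a and Htr7. All 10 were found by Ensembl identifier among the 55335 gene identifiers of the count files, of which 55154 had a symbol in the mouse GENCODE M21 annotation. Pregnant C57BL/6 dams received fentanyl, a synthetic opioid agonist, at 10 µg/ml in their drinking water, or plain water, from embryonic day 0 of gestation until the litters were weaned. Wild-type offspring of both sexes were sampled as juveniles by tissue punches of the ventral tegmental area (VTA), ventrobasal thalamus (VBT), primary somatosensory cortex (S1), prelimbic cortex (PrL) and nucleus accumbens (NAc). Bulk cDNA libraries were made from 10 ng of RNA each. The 4 groups of each region were therefore water females, fentanyl females, water males and fentanyl males, all of them wild-type, with no other agent named in any group. Each of the 20 groups had 5 libraries, except the S1 water males with 4. The labels name neither litters nor individual animals, so the p-values measure the spread between these libraries, which may share a litter or be technical.

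One VTA library, water male 3, had 6333 genes detected and a count for 1 of the 10 receptors (Htr2c, at 0.0605 CPM, the usual scaling of a count to its library total). It fell below the minimum of 10000 detected genes and was left out. The other 98 libraries held 23032078 to 52069639 counts each (median 36024982) and 24079 to 27347 detected genes, and 3 counts in a library corresponded to 0.0576 to 0.130 CPM. Region labels were compared with lists of known markers, scored as the mean log2(CPM + 1) over each list. The VTA list scored 3.94 to 6.47 in the VTA libraries and at most 1.78 elsewhere, the thalamus list 5.79 to 7.72 in the VBT, the cortex list 6.25 to 7.49 in S1 and PrL, and the striatum list 7.19 to 8.96 in the NAc. Outside their own regions the thalamus list reached 5.35 and the striatum list 6.52, and the cortex list reached 6.41 in the NAc, within the range of S1. Some libraries also carried markers of a neighbouring tissue. VBT water female 2 had a choroid plexus score of 6.64 and a striatum score of 5.91, VBT water male 3 and water female 1 striatum scores of 6.52 and 4.70, and PrL water female 5 and water male 3 olfactory bulb scores of 4.89 and 5.65. The VTA libraries had raphe scores of 1.68 to 6.05. In these bulk punches, fewer cells of a type and less RNA per cell cannot be told apart.

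Serotonin is released through most of the forebrain and midbrain by neurons of the raphe nuclei, and what a target region does with it depends on which receptors its cells carry. Htr1a, Htr1b, Htr1d, Htr1f and Htr5a encode receptors coupled to inhibitory G proteins of the Gi/o class. Htr2a and Htr2c signal through Gq and phospholipase C, Htr4 and Htr7 through Gs and cyclic AMP, and Htr3a encodes the subunit that every channel of the ligand-gated serotonin receptor contains. Htr1a also acts as the autoreceptor on serotonin cell bodies, and Htr1b and Htr1d act at axon terminals.

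The receptors made up a different mixture in each region. To compare genes of different length, CPM were divided by the exon length of each gene in kilobases, and the 10 values were summed in each water library. The sum was 54.3 ± 2.94 CPM per kb in the NAc (SD, n = 10), 44.5 ± 3.84 in the VTA (n = 9), 33.4 ± 3.43 in PrL (n = 10), 24.3 ± 2.17 in S1 (n = 9) and 13.8 ± 3.21 in the VBT (n = 10). Htr2c gave the largest part of this sum in the NAc (40.0% ± 2.41) and in the VTA (36.4% ± 2.46). Htr2a did so in PrL (31.0% ± 2.82) and S1 (29.2% ± 4.25), and Htr7 in the VBT (42.6% ± 11.4). By coupling class, the 5 Gi/o receptors supplied 42.1% ± 1.90 of the length-scaled sum in the VTA, 44.4% ± 2.85 in S1, 44.4% ± 1.89 in PrL, 38% ± 2.78 in the NAc and 26.2% ± 6.76 in the VBT. The Gs-coupled pair supplied 44.4% ± 11.2 in the VBT, against 14.3% ± 1.27 in the VTA, 14.0% ± 2.54 in S1, 5.77% ± 1.63 in the NAc and 4.87% ± 1.05 in PrL. The Gq-coupled pair ranged from 28.6% ± 10.4 in the VBT to 53.3% ± 3.09 in the NAc. The channel subunit Htr3a was a cortical component, with 9.52% ± 2.51 in S1 and 9.83% ± 1.59 in PrL, 2.97% ± 0.931 in the NAc, 1.09% ± 0.425 in the VTA and 0.847% ± 0.436 in the VBT.

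**Figure D1:**
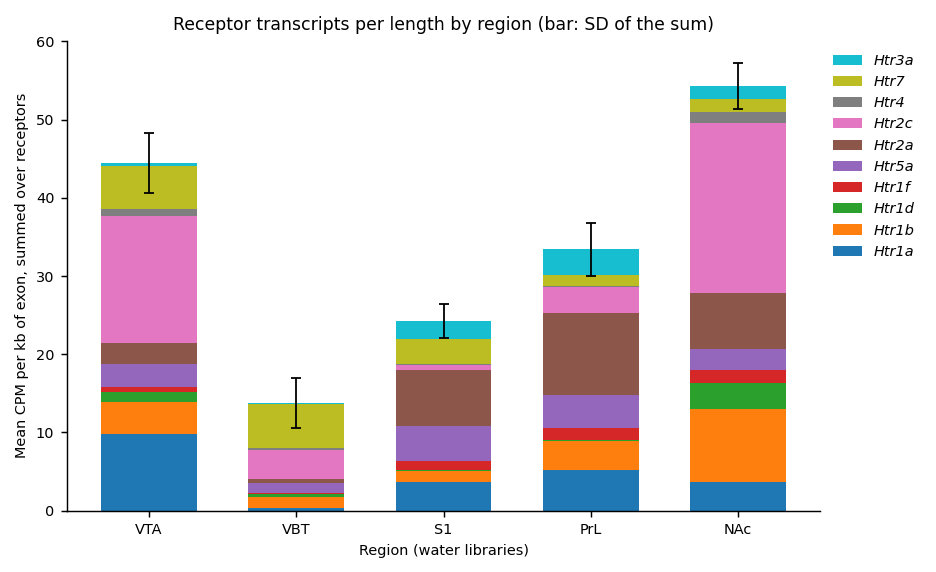
Mean CPM per kilobase of exon of the 10 serotonin receptors stacked for each of the 5 regions in water libraries (9 or 10 libraries a region), with the SD of the sum as the error bar. Htr2c is the largest block in the VTA and NAc, Htr2a in S1 and PrL, and Htr7 in the VBT, where the whole stack (13.8 CPM per kb) is the lowest.

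Levels between regions were tested over the 48 water libraries with edgeR's quasi-likelihood test, both sexes weighted equally, and a difference was called at a Benjamini-Hochberg adjusted p under 0.05 over the 21468 genes tested. All 10 receptors passed the filter on low counts. Of the 100 tests of a receptor in a pair of regions, 86 were called, and 73 of the 86 stayed called under every alternative and with each library left out. These regions differ in many genes, so each count stands beside the share of all genes called in the same pair. The VBT against the VTA had 9 receptors called, all 9 lower in the VBT, beside 52.5% of all genes, and the median log2 difference of the receptors was -1.75 against -0.02 over all genes. The NAc against the VBT had 10 called, 9 of them higher in the NAc, beside 67.8% of all genes (median log2 difference 2.86 against 0.00). S1 against the VBT had 9 called beside 68.0%, and PrL against the VBT 8 beside 68.4%. S1 against the VTA had 10 called, 4 higher in S1 and 6 lower, beside 67.6% of all genes. PrL against the VTA had 9 beside 66.5%, and the NAc against the VTA 8 beside 64.8%. Among the cortical and striatal regions, PrL against S1 had 7 called beside 37.3%, of which 6 were higher in PrL, the NAc against S1 had 8 beside 53.3%, and the NAc against PrL 8 beside 50.3%.

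**Figure D2:**
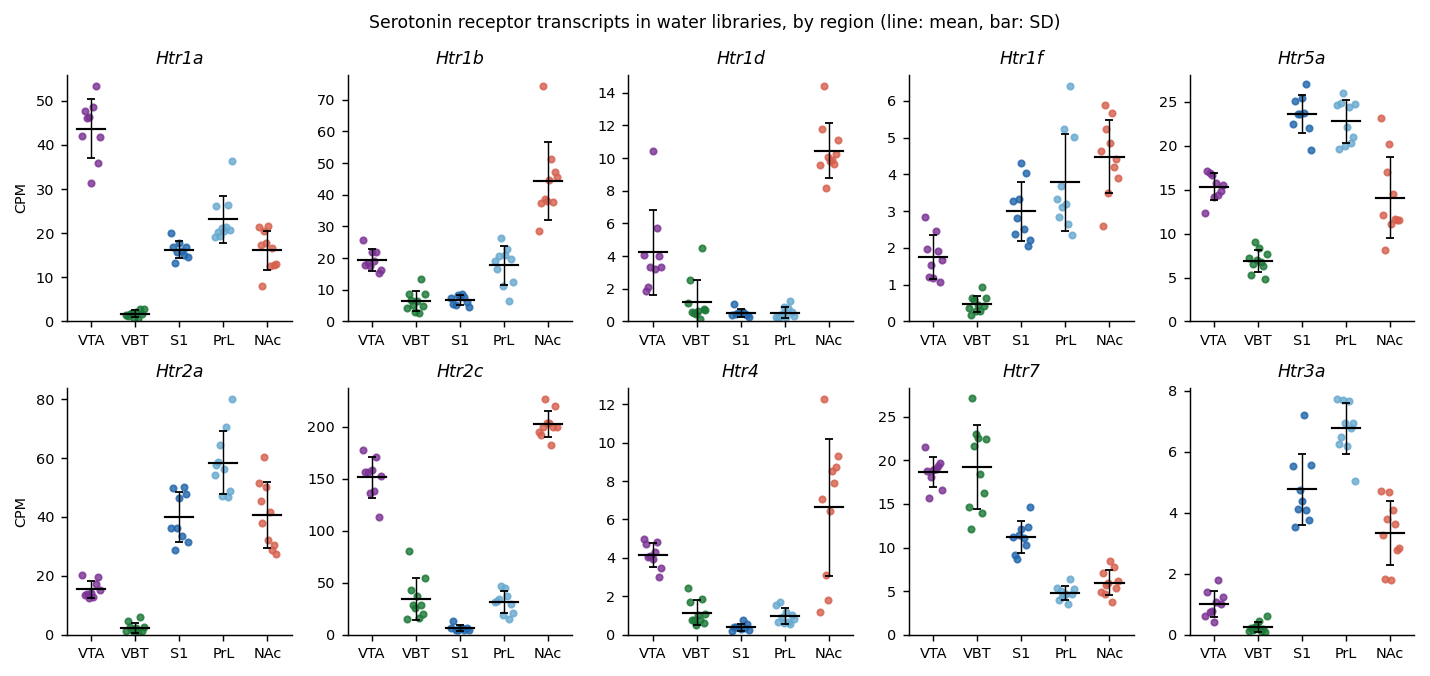
CPM of each of the 10 serotonin receptors in every water library of the 5 regions, on a linear axis, 1 panel a gene. Points are libraries, horizontal lines are means and bars are SD. Htr2c spans from 4.11 CPM in an S1 library to 226 CPM in a NAc library, and Htr7 is the only 1 of the 10 whose highest mean is in the VBT.

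Among the inhibitory receptors, Htr1a (chr13:105443639-105448122, plus strand, a single exon; all positions are GRCm38) was highest in the VTA. The 9 water libraries there held 31.3 to 53.3 CPM (median 46.2, mean 43.7 ± 6.77 SD). PrL followed at 23.2 ± 5.30 CPM, then S1 at 16.2 ± 1.95 and the NAc at 16.2 ± 4.45, and the VBT was last at 1.70 ± 0.785 CPM, with 0.566 to 2.84 CPM in its libraries. These VTA libraries had raphe scores of 3.19 to 5.87. Set against that score over 19 VTA libraries, after subtracting group means, Htr1a had Pearson r = 0.62 (adjusted permutation p = 0.114). Spearman's rho was 0.64 (adjusted permutation p = 0.0674), and neither was called. The part of raphe cells in the Htr1a of the VTA was not tested beyond this relation. No VTA library overlapped a VBT library, and the VTA stood 24.0-fold above the VBT (log2 4.59 ± 0.20 SE, edgeR adjusted p = 1.2e-22). Each step in the order was called apart from S1 against the NAc (log2 0.08, adjusted p = 0.724), whose libraries span cortex scores of 4.67 to 6.35 in water. PrL above S1 was lost in the fentanyl libraries (log2 0.42, adjusted p = 0.112) and with the library of few genes kept (0.495), as was PrL against the VTA with that library (0.158).

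Htr1b (chr9:81628291-81633828, minus strand) was highest in the NAc, with 28.6 to 74.4 CPM in 10 water libraries (median 41.6, mean 44.4 ± 12.3 SD). The VTA (19.4 ± 3.35 CPM) and PrL (17.7 ± 6.01) formed a middle level and were not distinguished from each other (edgeR adjusted p = 0.931). S1 (6.79 ± 1.51) and the VBT (6.44 ± 3.24) formed a lower level, also not distinguished (adjusted p = 0.869). An exon of the antisense transcript D430036J16Rik overlaps 852 bases of the Htr1b exons. No source used here states whether counting used the strand, so Htr1b reads cannot be told apart from reads of that transcript.

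Htr1d (chr4:136423524-136444398, plus strand), the close relative of Htr1b, measured 10.5 ± 1.68 CPM in the NAc (8.17 to 14.4 in 10 libraries) and 4.23 ± 2.58 in the VTA (1.88 to 10.4 in 9 libraries). In S1 (0.514 ± 0.227 CPM) and PrL (0.545 ± 0.349) it was low and not distinguished (edgeR adjusted p = 0.857). The VBT mean of 1.2 ± 1.33 CPM came from libraries of 0.172 to 4.5 CPM. Its highest values, 4.5 in water male 3 and 2.56 in water female 2, were in the libraries with striatal markers. The VBT was called above PrL (log2 1.14 ± 0.40 SE, adjusted p = 0.0105), but not without VBT water male 3 (adjusted p = 0.140) or without VBT water female 2 (adjusted p = 0.0605), and the log2 difference was 0.54 by limma-voom (0.184) and 0.47 without the 5 water libraries with markers of a neighbouring tissue (0.249).

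Htr1f (chr16:64924729-65105854, minus strand) was highest in the striatal and cortical regions, with 4.48 ± 1.0 CPM in the NAc, 3.78 ± 1.32 in PrL and 3.0 ± 0.800 in S1. Neighbours in that order did not differ beyond their spread (edgeR adjusted p = 0.528 and 0.186), while the NAc was called above S1 (log2 0.52 ± 0.21 SE, adjusted p = 0.0347). That call was lost without any 1 of S1 water females 2 and 3, S1 water males 1, 4 and 5, NAc water females 3 and 4 or NAc water male 2 (adjusted p 0.0548 to 0.0799), in the fentanyl libraries (log2 0.29, adjusted p = 0.0855) and with the library of few genes kept (0.234). The VTA had 1.76 ± 0.600 CPM and the VBT 0.476 ± 0.226, and both steps down were called. Htr5a (chr5:27842149-27855088, plus strand) varied least between regions. It measured 23.6 ± 2.15 CPM in S1 and 22.8 ± 2.40 in PrL (adjusted p = 0.842), 15.3 ± 1.54 in the VTA and 14.1 ± 4.64 in the NAc (adjusted p = 0.396; called lower in the NAc in the fentanyl libraries, log2 -0.47), and 6.90 ± 1.29 in the VBT. From S1 to the VBT this was a 3.28-fold range, the smallest of the 10 receptors.

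Htr2a (chr14:74640840-74709494, plus strand), the Gq-coupled receptor through which classical hallucinogens act, was highest in PrL. The 10 PrL water libraries held 46.6 to 79.9 CPM (mean 58.5 ± 10.7 SD). PrL above S1 (log2 0.55, edgeR adjusted p = 0.0264) was lost without any 1 of S1 water female 3, S1 water males 1 and 5 or PrL water male 5, with no filter on low counts (0.0520) and with the library of few genes kept (0.442). PrL above the NAc (log2 0.65, edgeR adjusted p = 0.00486) was also lost with that library kept (0.216). The NAc (40.6 ± 11.1 CPM) and S1 (40.1 ± 8.43) were not distinguished (edgeR adjusted p = 0.712). The VTA had 15.5 ± 2.86 CPM and the VBT 2.41 ± 1.75, of which the highest, 6.18 CPM, was again water male 3. PrL exceeded the VBT 24.2-fold (log2 4.60 ± 0.24 SE, adjusted p = 2.0e-20).

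Htr2c (chrX:146962513-147197277, plus strand), an X-linked receptor whose transcript undergoes RNA editing, had the highest level per length of the 10 in the NAc and VTA and the widest range across regions. The NAc libraries lay at 183 to 226 CPM (mean 203 ± 12.6 SD, n = 10) and the VTA libraries at 113 to 178 CPM (mean 151 ± 19.5, n = 9). This step was not called (log2 0.43 ± 0.23 SE, edgeR adjusted p = 0.0970), but was by limma-voom (log2 0.48, adjusted p = 0.00933) and without the 5 water libraries with markers of a neighbouring tissue (log2 0.48, adjusted p = 0.0203). Choroid plexus scores in the VTA reached 4.75 in water male 2 and 3.66 in water female 5. The VBT (34.8 ± 20.3 CPM) and PrL (31.1 ± 10.5) were not distinguished (adjusted p = 0.482). The highest VBT value, 80.3 CPM, was in water female 2, the library with a choroid plexus score of 6.64, and choroid plexus is a tissue known for abundant Htr2c. Its part in that value was not tested. S1 was lowest at 6.42 ± 2.94 CPM, 30.7-fold below the NAc.

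Of the receptors that raise cyclic AMP, Htr7 (chr19:35958734-36057507, minus strand) had its highest means in the VBT and VTA. It measured 19.2 ± 4.86 CPM in the VBT (12.1 to 27.1 in 10 libraries) and 18.6 ± 1.73 in the VTA (15.6 to 21.6 in 9), which were not distinguished (edgeR adjusted p = 0.224). Without VBT water females 1 and 2, VBT water male 3, PrL water female 5 and PrL water male 3, 5 libraries with markers of a neighbouring tissue, the VBT was called above the VTA (log2 0.40, adjusted p = 0.00328), as it was by limma-voom (log2 0.35, adjusted p = 0.00106). S1 followed at 11.2 ± 1.79 CPM, then the NAc at 5.99 ± 1.45 and PrL at 4.77 ± 0.798, the last pair not distinguished (adjusted p = 0.140), though called without the same 5 libraries (log2 0.27, adjusted p = 0.0461) or without NAc water male 2 (log2 0.30, adjusted p = 0.0453). The lowest VBT value, 12.1 CPM, was in water female 2.

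Htr4 was low throughout and highest in the NAc and VTA. The 10 NAc water libraries spread over 1.17 to 12.2 CPM (mean 6.63 ± 3.56 SD), and the 9 VTA libraries over 3.02 to 4.99 CPM (mean 4.16 ± 0.640). The ranges overlapped, and the called difference between them (log2 0.64 ± 0.28 SE, edgeR adjusted p = 0.0459) was lost in 13 of the fits that left out a single library, with a log2 difference of 0.32 and an adjusted p of 0.274 without NAc water female 3. It was also lost with limma-voom (log2 0.23, adjusted p = 0.230), no filter on low counts (0.0573), the replicate block (0.0843) and the library of few genes kept (0.0669). The VBT (1.16 ± 0.633 CPM) and PrL (0.981 ± 0.398) were not distinguished (adjusted p = 0.439). In the fentanyl libraries PrL was called above the VBT (log2 0.63, edgeR adjusted p = 0.0118). S1 was lowest at 0.401 ± 0.180 CPM, which rested on 8 to 23 counts a library.

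Htr3a (chr9:48899213-48911099, minus strand) was highest in the cortical regions. PrL had 6.77 ± 0.839 CPM (5.03 to 7.71 in 10 libraries), S1 4.77 ± 1.16 (3.53 to 7.21 in 9), the NAc 3.35 ± 1.05, the VTA 1.01 ± 0.428 and the VBT 0.253 ± 0.165. All 4 steps were called, the weakest being PrL above S1 (log2 0.51 ± 0.20 SE, edgeR adjusted p = 0.0370). That step was lost without any 1 of S1 water females 2 and 3, S1 water males 3 and 4, PrL water females 1 and 4 or PrL water males 2 and 4 (adjusted p 0.0529 to 0.0910), with no filter on low counts (0.0538) and with the library of few genes kept (0.347). S1 above the NAc was also lost with that library kept (edgeR adjusted p = 0.146). The VBT values rested on 3 to 21 counts, and 1 of the 10 libraries was at the limit of 3 counts.

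Fentanyl exposure was tested within each region with edgeR in females, in males, averaged over the sexes, and as the difference between the male and the female response. All 10 receptors were tested in every region. Over the 5 regions, 0 of 50 tests were called in females, 0 of 50 in males, 1 of 50 averaged over the sexes and 0 of 50 for the difference between the sexes. At an unadjusted p under 0.05 there were 9, 8, 8 and 6. Over all genes the share at that level in a region was 7.86 to 13.9% in females, 7.15 to 34.7% in males, 8.49 to 35.4% averaged over the sexes and 2.59 to 15.2% for the difference. DESeq2 called 0, 1, 2 and 0 in the same order (10, 8, 10 and 7 unadjusted), and limma-voom with sample weights 0, 2, 2 and 1 (15, 11, 13 and 13 unadjusted).

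**Figure D3:**
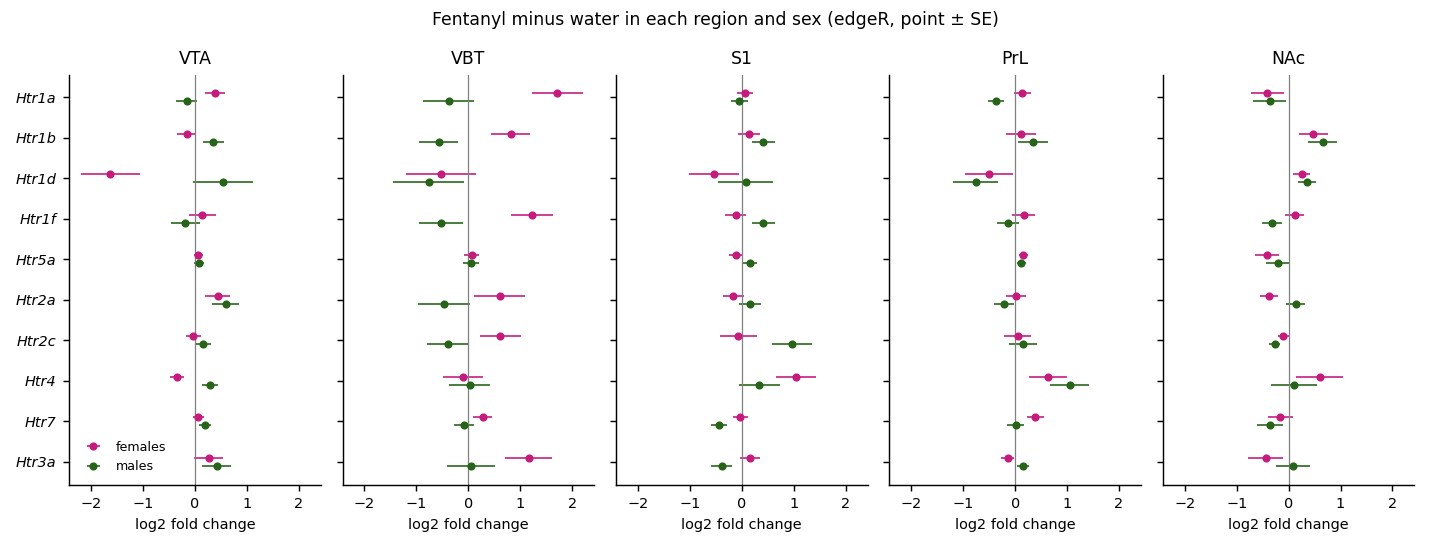
Log2 difference of fentanyl against water for each serotonin receptor in each of the 5 regions, by sex, from edgeR, with bars of 1 SE. Of the 100 values 78 lie within 0.5 of 0, the points farthest from 0 belong to low-count receptors such as Htr1a and Htr1f in the VBT and Htr1d in the VTA, and no single-sex value was called.

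The VTA was the region with a broad difference between exposed and control offspring. Of the 19822 genes tested there, edgeR called 22.0% in males and 23.1% averaged over the sexes, against 0% in females and 0% for the difference between the sexes. The 4355 genes called in males became 846 with offsets for GC content, 2659 without water male 4 and 42 with the library of few genes kept. The receptors stood at 0 of 10 called in males and 1 of 10 averaged over the sexes. At an unadjusted p under 0.05 there was 1 of 10 receptors in males, where 34.7% of all genes reached that level. The median log2 difference of the receptors in males was 0.24, against 0.00 over all genes.

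Htr2a was the receptor called in the VTA. Water females held 20.2, 13.6, 13.8, 12.4 and 14.3 CPM and fentanyl females 14.9, 19.5, 37.4, 17.5 and 12.8 CPM. Water males held 12.9, 17.1, 19.6 and 15.1 CPM and fentanyl males 29.6, 17.4, 25.4, 21.3 and 24.6 CPM. In males all but 1 of the fentanyl values lay above every water value, and in females the groups overlapped widely, with fentanyl female 3 far above the rest. Over both sexes the mean rose from 15.5 ± 2.86 CPM (SD, n = 9) to 22.1 ± 7.43 (n = 10), a log2 difference of 0.52 ± 0.18 SE (edgeR adjusted p = 0.0449). Neither the female contrast (log2 0.44 ± 0.24, adjusted p = 0.463) nor the male contrast (log2 0.59 ± 0.26, adjusted p = 0.114) of that fit was called. The male difference was called by DESeq2 (adjusted p = 0.0407), by limma-voom (0.0145) and by edgeR with males fitted alone (log2 0.60, adjusted p = 0.0274).

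The call on Htr2a was close to its threshold. It was lost in 14 of 19 fits that left out 1 library, in which the log2 difference ran from 0.35 to 0.59 and the adjusted p from 0.0204 to 0.0923. Without fentanyl female 3, the log2 difference was 0.35 and the adjusted p 0.0554, while the male difference was then called (log2 0.59, adjusted p = 0.0228). The cortex marker list moved with the treatment. Its score was 1.74 ± 0.243 in water (1.35 to 2.15, 9 libraries) and 2.11 ± 0.317 in fentanyl libraries (1.65 to 2.65, 10 libraries), highest in fentanyl female 3. The 6 listed cortical genes summed to 13.8 to 33.6 CPM in water and 19.9 to 169 CPM in fentanyl libraries, with none of the 6 at 0 throughout. The VTA marker score moved as well, from 5.96 ± 0.644 in water to 5.43 ± 0.769 in fentanyl libraries (6 genes summing to 478 to 1733 and 335 to 1361 CPM, none at 0). It was lowest in fentanyl male 1 (3.94), water female 1 (4.41) and fentanyl female 3 (4.49), which held 29.6, 20.2 and 37.4 CPM of Htr2a, and its part in the result was not tested. Fitted together with the cortex score, the log2 difference of Htr2a was 0.48 (adjusted p = 0.174). Htr1b was called in the same fit, in males (log2 0.54, adjusted p = 0.0218) and averaged over the sexes (log2 0.38, adjusted p = 0.0497).

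Htr1d and Htr4 had differences of opposite sign in the VTA of females and males. Htr1d held 4.07, 1.88, 2.09, 3.32 and 10.4 CPM in water females and 1.2, 1.36, 1.37, 1.02 and 2.26 CPM in fentanyl females. Water males had 3.19, 5.72, 4.01 and 3.34 CPM, and fentanyl males 3.37, 1.78, 6.68, 14.0 and 2.58. The female ranges overlapped narrowly, and the male ranges fully. The female difference was -1.63 ± 0.57 (log2, SE, edgeR adjusted p = 0.302) and the male minus female response 2.17 ± 0.81 (adjusted p = 0.420), so neither was called. Without water female 5 the female difference was -0.99.

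Htr4 in the VTA lay at 3.93 to 4.99 CPM in water females against 2.72 to 4.01 in fentanyl females (log2 -0.34 ± 0.14 SE, edgeR adjusted p = 0.340), and at 3.02 to 4.82 in water males against 4.04 to 5.11 in fentanyl males (log2 0.29 ± 0.15, adjusted p = 0.189). The male difference was called by limma-voom (log2 0.36, adjusted p = 0.0481). The difference between the responses was 0.63 ± 0.21 and was not called (adjusted p = 0.420). The other 7 receptors of the VTA had no fentanyl contrast with an unadjusted p under 0.05.

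In the VBT edgeR called 0% of the 18923 genes tested in females, 0% in males, 0% averaged over the sexes and 0% for the difference between the sexes, and 0 of 10 receptors in each. Yet 4 receptors had an unadjusted p under 0.05 in females, all with higher means after fentanyl, while 7.86% of all genes did so. Htr1a held 1.49, 1.17, 1.59, 1.88 and 0.566 CPM in water females and 2.94, 7.05, 3.13, 4.58 and 4.55 CPM in fentanyl females. Every fentanyl female lay above every water female. The log2 difference was 1.72 ± 0.49 SE, with an edgeR adjusted p of 0.424. Htr1a was the only receptor of the 10 whose VBT female groups did not overlap. The share of all genes whose groups did not overlap was not counted.

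The other 3 VBT receptors with an unadjusted p under 0.05 in females overlapped between groups. Htr1f had 0.408 ± 0.194 CPM in water and 0.978 ± 0.426 in fentanyl females (log2 1.23 ± 0.40 SE, edgeR adjusted p = 0.451). Htr3a had 0.218 ± 0.0813 and 0.494 ± 0.207 CPM (log2 1.16 ± 0.45, adjusted p = 0.496), and Htr1b 5.60 ± 2.13 and 9.94 ± 3.01 CPM (log2 0.82 ± 0.37, adjusted p = 0.614). In males the same 4 genes had log2 differences of -0.38 (Htr1a), -0.53 (Htr1f), 0.05 (Htr3a) and -0.57 (Htr1b). The male minus female response had an unadjusted p under 0.05 for Htr1a (-2.09 ± 0.69), Htr1f (-1.75 ± 0.58) and Htr1b (-1.39 ± 0.53), with edgeR adjusted p of 0.351, 0.350 and 0.462. Over all genes, 8.03% reached that level for this response. Fentanyl male 4 held 4.62 CPM of Htr1a, while the other 4 fentanyl males held 0.605 to 1.06 CPM.

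Tissue markers differed between these VBT groups. The striatum score was 4.04 ± 1.25 in water females (6 genes summing to 102 to 496 CPM) and 3.09 ± 0.0880 in fentanyl females (91.6 to 100.2 CPM), with none of the 6 genes at 0 in either. The choroid plexus score was 0.936 to 6.64 in water females and 0.977 to 1.27 in fentanyl females, and the raphe score 0.655 to 0.768 and 0.743 to 1.03. Without the 4 VBT libraries with a striatum score over 4.5, the female log2 difference was 1.68 for Htr1a (edgeR adjusted p = 0.544) and 0.91 for Htr1f (adjusted p = 0.579).

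**Figure D4:**
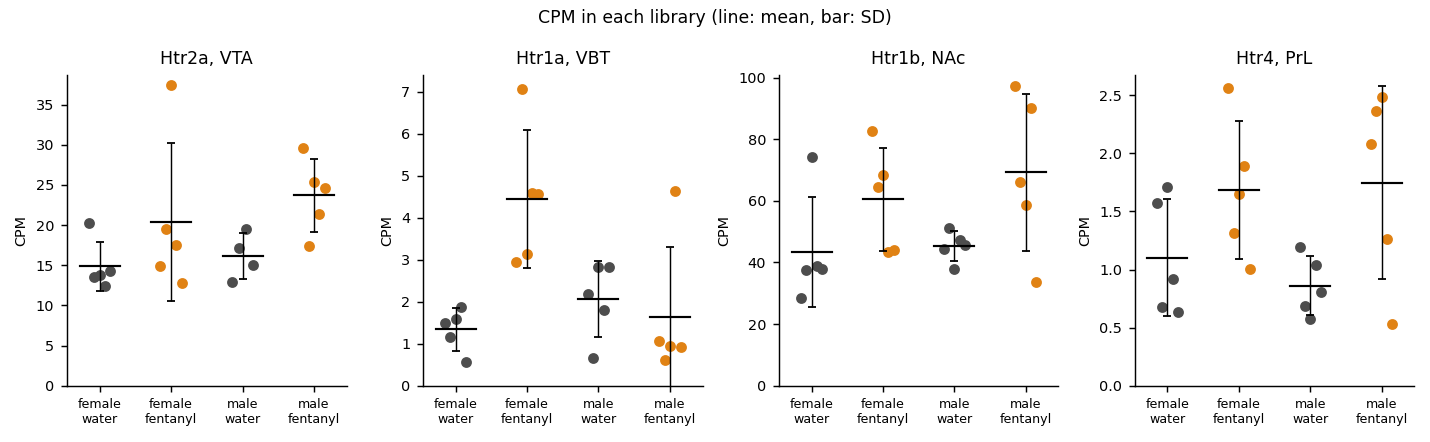
CPM of Htr2a in the VTA, Htr1a in the VBT, Htr1b in the NAc and Htr4 in PrL for each library, by sex and treatment, with group means as horizontal lines and SD as bars. Fentanyl females lie apart from water females for Htr1a in the VBT, and the groups overlap in the other female and male pairs shown.

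In the NAc edgeR called 0.662% of the 19480 genes tested in males, 0% in females, 0% averaged over the sexes and 0% for the difference between the sexes. No receptor was among them. Leaving out 1 library, the count of all genes ran from 0 to 449 for that difference and from 0 to 55 averaged over the sexes. The receptors with an unadjusted p under 0.05 were the terminal receptors Htr1b and Htr1d, with higher means after fentanyl, and the Gq-coupled Htr2c and, in females, Htr2a, with lower ones. Htr1b held 28.6, 37.5, 74.4, 38.7 and 38 CPM in water females and 82.6, 64.4, 68.2, 43.2 and 44.1 CPM in fentanyl females. Water males had 44.5, 51.2, 37.7, 47.3 and 45.7 CPM, and fentanyl males 97.4, 66.1, 58.8, 90.1 and 33.7. In males 4 of 5 fentanyl values lay above all water values and 1 below them, and in females water female 3 lay within the fentanyl range.

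Over both sexes Htr1b had 44.4 ± 12.3 CPM in water and 64.8 ± 20.9 in fentanyl libraries (SD, n = 10 each; log2 0.57 ± 0.20 SE, edgeR adjusted p = 0.301). It was called by limma-voom (log2 0.62, adjusted p = 0.0443) and with an added term for the share of reads outside exons (log2 0.69, adjusted p = 0.0206). Htr1d had 10.5 ± 1.68 CPM in water and 12.7 ± 2.77 in fentanyl libraries (log2 0.30 ± 0.12, adjusted p = 0.338). Htr2c had 203 ± 12.6 CPM in water and 177 ± 29.4 in fentanyl libraries (log2 -0.19 ± 0.08, adjusted p = 0.350), and in males 201 ± 13.2 against 163 ± 32.1 (log2 -0.27 ± 0.11, adjusted p = 0.198). Htr2a in females had 49.0 ± 8.26 CPM in water and 38.1 ± 3.81 after fentanyl (log2 -0.37 ± 0.17, adjusted p = 0.549), and in males 32.1 ± 5.66 and 34.3 ± 9.16 CPM (log2 0.13 ± 0.18). The male minus female response of Htr2a was 0.51 by edgeR (adjusted p = 0.344) and was called by limma-voom (0.71, adjusted p = 0.0398).

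The NAc libraries differed in their cortex marker score. It was 5.62 ± 0.549 in the 10 water libraries, whose 6 genes summed to 622 to 1636 CPM, and 5.17 ± 1.03 in the 10 fentanyl libraries, which summed to 454 to 1145 CPM, with none of the 6 at 0 in either. Of the 5 libraries with a score under 5, 4 were fentanyl libraries (females 1 and 2, males 2 and 4) and 1 was water female 3. In those 5 libraries Htr1d measured 13.8 to 17.4 CPM (8.12 to 12.9 in the other 15) and Htr1b 64.4 to 90.1 CPM (28.6 to 97.4 in the other 15). Htr1a measured 6.44 to 8.42 CPM in the 5 and 11.7 to 21.6 in the other 15, and Htr3a 1.37 to 2.06 and 1.80 to 4.73 CPM. The striatum score was 8.0 ± 0.450 in water and 8.45 ± 0.372 in fentanyl libraries, and the share of reads outside exons 14.3 to 16.1% in water males and 12.9 to 15.1% in fentanyl males (females 11.8 to 18.0% and 14.5 to 15.7%). The share of reads outside exons was fitted as a covariate, where Htr1b was called averaged over the sexes, as given above, and in males (log2 0.96, edgeR adjusted p = 0.0286). The cortex score was fitted as well. The part of the striatum score in the results was not tested. Fitted together with the cortex score, the log2 differences averaged over the sexes were 0.47 for Htr1b (edgeR adjusted p = 0.416) and 0.17 for Htr1d (adjusted p = 0.503).

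**Figure D5:**
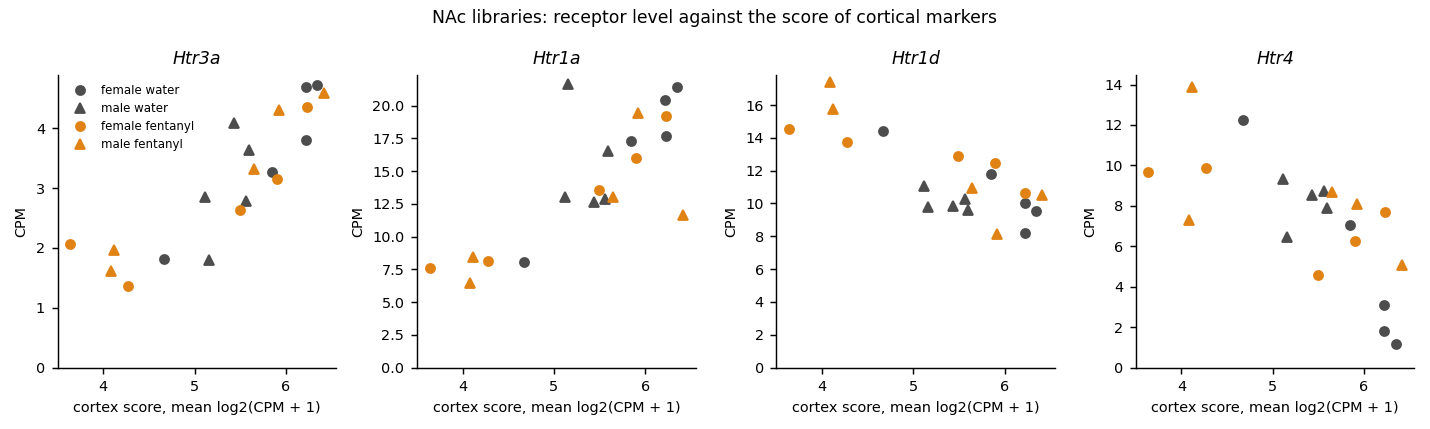
CPM of Htr3a, Htr1a, Htr1d and Htr4 against the cortex marker score (mean log2(CPM + 1) of 6 genes) in the 20 NAc libraries, coloured by treatment. In the 5 libraries with a score under 5, Htr1d lies at 13.8 to 17.4 CPM, above the other 15, and Htr1a at 6.44 to 8.42 CPM, below them.

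In PrL edgeR called 0.021% of the 19074 genes tested in females, 0% in males, 0.697% averaged over the sexes and 0% for the difference between the sexes, and 0 of 10 receptors. Htr4 came closest. It held 1.57, 0.679, 1.71, 0.920 and 0.635 CPM in water females and 2.56, 1.32, 1.65, 1.89 and 1.0 CPM in fentanyl females. Water males had 1.19, 0.683, 0.572, 1.04 and 0.809 CPM, and fentanyl males 2.08, 2.37, 2.48, 1.27 and 0.531. The groups overlapped in both sexes, and 4 of 5 fentanyl males lay above all water males. Averaged over the sexes the log2 difference was 0.84 ± 0.26 SE (edgeR adjusted p = 0.105), which DESeq2 called (adjusted p = 0.0389). The olfactory bulb score was 2.39 ± 1.60 in water libraries (6 genes summing to 13.7 to 425 CPM) and 1.45 ± 0.112 in fentanyl libraries (12.1 to 19.0 CPM). Water female 5 and water male 3 had the highest scores, and water male 4 followed at 2.90. Without the first 2 of these the log2 difference was 0.69 (edgeR adjusted p = 0.249). The share of reads outside exons was also lower after fentanyl, at 12.1 to 14.1% in water and 9.99 to 11.8% in fentanyl females, which did not overlap, and 12.7 to 14.5% and 10.9 to 12.9% in males. The cortex score was 7.01 to 7.26 in water and 7.29 to 7.49 in fentanyl females, again without overlap, and 6.67 to 7.22 and 7.15 to 7.39 in males.

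Another 4 PrL values had an unadjusted p under 0.05. Htr7 in females had 4.64 ± 0.565 CPM in water and 5.95 ± 1.30 after fentanyl (log2 0.39 ± 0.17 SE, edgeR adjusted p = 0.478). Htr1a in males had 25.1 ± 6.76 and 19.1 ± 4.30 CPM (log2 -0.37 ± 0.16, adjusted p = 0.391), and its male minus female response was -0.51 ± 0.23 (adjusted p = 0.999). Htr5a over both sexes had 22.8 ± 2.40 and 24.6 ± 1.47 CPM (log2 0.14 ± 0.06, adjusted p = 0.241).

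In S1 edgeR called 0.142% of the 19748 genes tested in females, 0% in males, 1.03% averaged over the sexes and 0% for the difference between the sexes, and 0 of 10 receptors. Htr7 in males held 11.1, 10.2, 12.4 and 14.6 CPM in water and 6.78, 7.73, 10.0, 9.45 and 9.56 CPM after fentanyl. Every fentanyl male lay below every water male, by a margin of 10.2 against 10.0 CPM, and the log2 difference of -0.45 ± 0.15 SE was not called (edgeR adjusted p = 0.617). How many of all genes lay apart in this way was not counted. The cortex score of these males was 6.25 to 6.46 in water and 6.52 to 6.86 after fentanyl, with no overlap, and in females 6.27 to 6.67 and 6.48 to 6.94. Its part in the Htr7 difference was not tested. In females the Htr7 groups overlapped, at 10.5 ± 1.54 CPM in water and 10.3 ± 2.15 after fentanyl. Htr4 in females rested on few counts, with 0.340 ± 0.0922 CPM in water and 0.722 ± 0.398 after fentanyl (log2 1.05 ± 0.38, adjusted p = 0.219). Htr2c in males had 5.40 ± 1.44 CPM in water and 10.3 ± 5.29 after fentanyl, with fentanyl libraries from 3.91 to 17.2 CPM on both sides of the water range (log2 0.96 ± 0.38, adjusted p = 0.670).

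Males and females were also compared in water. No receptor was called by edgeR in any region, 2 of 50 tests had an unadjusted p under 0.05 (over all genes, 3.4 to 10.8% in a region), DESeq2 called 1 and limma-voom 2. Over all genes, edgeR called 0.0504% in the VTA, 0.0898% in the VBT, 0.0557% in S1, 0.0472% in PrL and 0.0513% in the NAc. Leaving out 1 library, the count of genes ran from 10 to 68 in the VTA and from 8 to 174 in the NAc, against 10 in each main fit. Htr2a in the NAc held 51.5, 45.3, 38, 60.4 and 50.1 CPM in water females and 32.2, 41.8, 28.9, 30.5 and 27.4 CPM in water males. Only male 2 reached into the female range. The male minus female difference was -0.65 ± 0.18 (log2, SE; edgeR adjusted p = 0.286, DESeq2 0.050, limma-voom 0.0162). The other limma-voom call was Htr4 in the NAc, which held 1.17, 7.04, 12.2, 3.09 and 1.81 CPM in water females and 6.46 to 9.32 in water males. The difference was 1.58 by limma-voom with its sample weights (log2, adjusted p = 0.0261) and 0.67 by edgeR (adjusted p = 0.600). In fentanyl libraries the female mean of Htr2a was 38.1 ± 3.81 CPM and the male mean 34.3 ± 9.16. The cortex score of the same water libraries was 5.86 ± 0.692 in females and 5.37 ± 0.225 in males. Htr3a in the VTA had 0.788 ± 0.375 CPM in water females and 1.28 ± 0.349 in water males (log2 0.69 ± 0.29, edgeR adjusted p = 0.447).

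Across single libraries, the receptors were set against the score of 1 neighbouring tissue in each of 3 regions, after subtracting group means, in 30 relations tested by permutation. In the VBT, Htr1d followed the striatum score over 20 libraries (Pearson r = 0.90, Benjamini-Hochberg adjusted p = 0.0233; Spearman rho = 0.77, adjusted p = 0.0674; r = 0.74 without the 2 libraries farthest from the median score). Htr7 in the VBT ran the opposite way (r = -0.76, adjusted permutation p = 0.0233; rho = -0.73, adjusted p = 0.0674; r = -0.60 without the 2). In the VTA, Htr2c rose with the raphe score over 19 libraries (r = 0.61, adjusted permutation p = 0.0233; rho = 0.63, adjusted p = 0.0674; r = 0.62 without the 2). In the 15 NAc libraries with a cortex score over 5, a limit set after the scores were seen, Htr3a rose with that score (r = 0.74, adjusted permutation p = 0.0331; rho = 0.68, adjusted p = 0.0674; r = 0.77 without the 2). The other 26 relations were not called by Pearson's r, and none of the 30 by Spearman's rho. Over all 20 NAc libraries, 5 of the 10 relations were called by Pearson's r, with the permutation p adjusted over the 10. Htr3a (r = 0.87, rho = 0.86), Htr1a (r = 0.83, rho = 0.77) and Htr5a (r = 0.78, rho = 0.78) rose with the cortex score. Htr1d (r = -0.82, rho = -0.85) and Htr4 (r = -0.60, rho = -0.62) ran the opposite way. The adjusted p of r was 0.000700 for Htr3a, Htr5a and Htr1d, 0.00185 for Htr1a and 0.00574 for Htr4, those of rho 0.000200 to 0.0110, and without the 2 libraries farthest from the median score r was 0.90, 0.78, 0.74, -0.80 and -0.68 in the order named. Htr2a was called by rho alone (rho = 0.53, adjusted p = 0.0458; r = 0.35). Over the 15 libraries only Htr3a was called. There r was 0.07 for Htr1a, 0.20 for Htr5a, -0.43 for Htr1d and -0.33 for Htr4. The 15 and the 20 libraries differ in number, in range of scores and in relations adjusted together (30 and 10). The lost calls therefore cannot be put down to the 5 libraries with low scores alone.

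The other serotonin receptor genes were mostly low. Htr2b and Htr3b were at or under 3 counts in 44 and 45 of the 48 water libraries. Htr5b, a relative of Htr5a, was highest in the VTA (1.75 ± 0.425 CPM) and at most 0.782 ± 0.377 elsewhere. Htr6, a Gs-coupled receptor, was highest in the NAc (7.25 ± 1.49 CPM, n = 10), followed by PrL (4.21 ± 0.667), S1 (3.48 ± 0.484), the VTA (1.49 ± 0.325) and the VBT (0.844 ± 0.399). Htr6 was tested in all 5 regions and Htr5b in all but the VBT, and neither had a fentanyl contrast with an unadjusted p under 0.05.

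Serotonin neurons themselves were represented in the VTA punches. Tph2, the brain enzyme that starts serotonin synthesis, measured 182 ± 108 CPM in the 9 VTA water libraries (22.3 to 373) and at most 1.83 ± 0.683 CPM in the other regions. Slc6a4, the serotonin transporter, measured 95.9 ± 60.7 CPM there and at most 0.0732 ± 0.109 elsewhere. Among fentanyl males Tph2 stood at 618, 275, 32, 11.8 and 2.48 CPM, wider than the 22.3 to 373 CPM of the 4 water males, and the raphe score ran from 1.68 to 6.05. The monoamine oxidases that break serotonin down were also highest in the VTA, with Maoa at 95.1 ± 10.4 CPM against 37.2 to 43.1 elsewhere and Maob at 47.0 ± 8.02 against 19.8 to 28.

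In the VTA, some genes that make and degrade serotonin or couple its receptors were called after fentanyl. Of 14 genes of synthesis, transport and breakdown, 2 were called in males, both lower: Aldh2, a mitochondrial aldehyde dehydrogenase (log2 -0.29 ± 0.08 SE, edgeR adjusted p = 0.0137), and Spr, which completes the cofactor of tryptophan hydroxylase (log2 -0.32 ± 0.11, adjusted p = 0.0361). Of 16 genes of G-protein coupling, channel assembly and RNA editing, 7 were called in males. The G-protein subunits Gnai3 (log2 0.20) and Gnal (0.33) and the chaperone Ric3 (0.22) rose. The subunits Gnai2 (-0.29), Gna11 (-0.28) and Gnaz (-0.19) and the phospholipase Plcb3 (-0.28) fell. These shares, 2 of 14 and 7 of 16, stand beside the 22.0% of all genes called there. Averaged over the sexes 6 of the 16 were called, beside 23.1% of all genes. These were Gnai3, Gnal, Ric3, Gna11 and Gnaz, and Gnas, the Gs subunit (log2 -0.17, edgeR adjusted p = 0.0123), while Gnai2 and Plcb3 were not. With offsets for GC content, 0 of the 14 and 2 of the 16 were called in males (Gnal and Adar), and Gnai3 and Gnaz had the opposite sign. Spr in males was lost in 8 of the fits that left out 1 library, with the replicate block and with the raphe score. Gnaz in males was lost with the replicate block, no filter on low counts and exon-length offsets. It was also lost without any 1 of fentanyl males 1, 3 and 4 or water males 1, 4 and 5. Gnai3 in males was lost with no filter, and without any 1 of fentanyl males 1, 3 and 5 or water males 2 and 4. Plcb3 in males was lost without water male 5. Without water male 4, 4 of the 16 were called (Gna11, Gnai2, Gnal and Plcb3), against 9 with DESeq2 and 12 with limma-voom. Averaged over the sexes, only Gnal of the 16 and 0 of the 14 were called with GC offsets. Gnas was lost with the cortex score, and Ric3 with no filter on low counts. With the library of few genes kept, 0 of both lists were called. The cortex and VTA marker scores given beside Htr2a moved with the same groups. Outside the VTA, 0 genes of these lists were called by edgeR in any fentanyl contrast.

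For each receptor, the 2 protein-coding genes whose profile over the 5 regions in water was most like its own were found among 13634 candidates, by the root mean square difference of centred log2(CPM + 1) means. Htr1f came closest to its neighbours, Sntg2 at 0.06 and Lrrtm3 at 0.08. The 1 added to CPM shrinks the range of low receptors such as Htr1f (0.476 to 4.48 CPM by region), while Lrrtm3 measured 20.2 to 79.3 CPM. Distances of low and high receptors are therefore not directly comparable. Htr1b was nearest to the cation channel Trpc7 (0.10) and then Atp6v1c2 (0.24), Htr5a to Lypd6 (0.10) and Pdk1 (0.10), Htr3a to Dusp18 (0.12) and Cdkl4 (0.13), and Htr7 to Timp4 (0.12) and Tmem229a (0.12). Htr1d was nearest to the anoctamin Ano2 (0.14) and to Stk32a (0.22), and Stk32a was also the next to Htr4 (0.19) after C130060K24Rik (0.18). Htr2a lay nearest to Atp2b4 (0.23). Htr1a had no close match, with Crhbp at 0.39 and Slit2 at 0.45, nor did Htr2c, with Nnat at 0.46 and Zcchc12 at 0.52.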

How the data were processed

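Counts per gene were deposited by the authors for each of the 99 libraries. Per the labels' protocols, Trizol and a spin-column kit gave the RNA, which was treated with DNase and amplified with SMART-Seq v4 from 10 ng. HTSeq and the GRCm38 build are named per the submitters' processing notes. Versions, the aligner and the strand setting are not given in the sources used here. Lines that name no gene held 16.2 to 24.0% of the reads and stayed out of library sizes. Of all pairs of libraries, 0 held identical counts.

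CPM were computed from the counts. Genes were named and measured with GENCODE M21 (GRCm38), merging the exons of each gene. Groups were fitted per region as sex by treatment means with edgeR 4.0.16 (R 4.3.3): TMM scaling, filterByExpr, robust quasi-likelihood F-test, Benjamini-Hochberg adjustment over all genes tested, called at an adjusted p under 0.05. The SE is the log2 difference divided by the square root of F. Water libraries were fitted over region by sex. Alternatives used DESeq2 1.42.0, limma 3.58.1 (voom), other filters, offsets and covariates and left-out libraries. Scripts were tested on simulated data.

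The members and lists were chosen with earlier results of these data known. Named beside the 10 receptors were Htr2b, Htr3b, Htr5b, Htr6, Tph2, Slc6a4, Maoa and Maob whatever their values, any gene of the pathway lists called after fentanyl, and the 2 genes most like each receptor. One of these genes is not reported here. Marker lists for 15 tissues and cell types were scored. Scores as covariates (raphe, cortex, striatum, olfactory bulb) the fits without libraries that carried striatal or other neighbouring markers, and the cortex score relations over 15 or all 20 NAc libraries were chosen after seeing the data. Score relations used 100000 permutations, two-sided.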

Additional observations from a re-analysis of the deposited data

Results flagged for a closer look

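In each of the 20 groups, the highest and lowest library of each receptor was compared with the rest of its group by Dixon's ratio. Of 200 groups of a receptor tested, 15 had a library that stood apart, where chance alone gives about 10. The values are given without explanation.

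Htr1d stood apart most often. It was high at 10.4 CPM in VTA water female 5 (the others held 1.88 to 4.07), at 2.26 in VTA fentanyl female 5 (1.02 to 1.37), at 4.5 in VBT water male 3 (0.172 to 0.773), at 2.05 in VBT fentanyl male 5 (0.314 to 0.628), at 1.07 in S1 water female 2 (0.373 to 0.532) and at 0.801 in PrL fentanyl male 3 (0.213 to 0.339). The 2 VBT libraries had striatum scores over 4.5.

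VTA fentanyl female 3 stood apart for a pair of receptors, with Htr2a high at 37.4 CPM (12.8 to 19.5 in the others) and Htr1b low at 12.3 CPM (18.4 to 20.9). VTA water female 1 was high for Htr2a at 20.2 CPM (12.4 to 14.3). S1 water female 2 was also high for Htr2c, at 13.7 CPM (4.61 to 6.72). Its choroid plexus score was 3.37, against 0.761 to 1.22 in the other S1 water females, and the part of that tissue in the value was not tested.

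The remaining values were Htr1a at 4.62 CPM in VBT fentanyl male 4 (0.605 to 1.06), Htr1b at 74.4 CPM in NAc water female 3 (28.6 to 38.7), Htr5a at 14.5 CPM in NAc water male 2 (11.1 to 11.7) and Htr7 at 28.9 CPM in VBT fentanyl female 1 (22.5 to 23.3), all high. Htr3a was low at 4.92 CPM in PrL fentanyl female 2 (6.29 to 6.81).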

How the results depend on the processing

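Of 7660 recomputed fentanyl and sex differences of single receptors, 7624 stayed on the same side of the threshold, 21 lost a call, 15 gained one and 0 changed sign with a call. Between regions the counts were 5634 of 5700, 58, 7 and 1. The reversal was Htr4 in PrL against the VBT, -0.27 in water and 0.63 in the fentanyl libraries (edgeR adjusted p = 0.0118), and the cause was not tested. All 50 water levels moved by less than 1 SD under TMM-scaled CPM.

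In VTA males 0 receptors were called, against 1 with DESeq2, 2 with limma-voom, 1 in males fitted alone, 1 with the cortex score and 0 to 1 leaving out 1 library. Averaged over the sexes in the VTA the count of 1 (Htr2a) became 0 with no filter on low counts, the replicate block, GC offsets, exon-length offsets, all libraries kept and the raphe score, and 0 to 1 leaving out 1 library. With the cortex score it stayed 1, but Htr1b in place of Htr2a. The log2 difference of Htr2a was 0.51 without the filter, 0.35 with GC offsets, 0.50 with exon-length offsets, 0.50 with the raphe score (adjusted p = 0.0613) and 0.67 with all libraries kept, against 0.52. Counts of 0 became 1 in PrL averaged over the sexes with DESeq2, and 1 in NAc males and averaged over the sexes with the share of reads outside exons. Limma-voom gave 1 in the NAc averaged over the sexes, 1 for the NAc difference between responses and 2 between the sexes in water, where DESeq2 gave 1. With all libraries kept, PrL against S1 went from 7 to 4 and the NAc against PrL from 8 to 5. The cause of these changes was not tested.

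The numbers were not taken as pairs: the mean correlation of same-numbered libraries was -0.05 to 0.01 within regions, and 0.06 across regions in water (-0.01 for other numbers), where 35 of 92 pairs exceeded 0.1. With the replicate block Htr2a in the VTA had a log2 difference of 0.43 (edgeR adjusted p = 0.105), the count of receptors in the NAc against the VTA went from 8 to 7, and no other count of receptors moved.

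The counts over all genes moved more. In VTA males 4355 were called, 2659 (without water male 4) to 4664 leaving out 1 library, 846 with GC offsets, 6568 with limma-voom and 42 with all libraries kept, and averaged over the sexes 4580, 960 with GC offsets and 60 with all libraries kept. In NAc males 129 were called, from 0 (without water male 3) to 813 (without fentanyl male 5), 920 with DESeq2, 1573 with limma-voom and 2 with the replicate block. Averaged over the sexes, S1 had 203, from 30 (without water male 4) to 502 (without fentanyl male 5), and 645 with DESeq2. PrL had 133, from 38 (without water female 5) to 289 (without water female 1), 778 with DESeq2 and 0 with the share of reads outside exons. S1 females had 28, from 0 to 220, and PrL females 4, from 0 to 7. Counts of 0 reached at most 30 in S1 males, 24 in VBT males and 18 for the VBT difference between responses. A library's 3 counts corresponded to up to 0.130 CPM, which bears on Htr3a in the VBT and on Htr2b and Htr3b.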

Other observations

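Adarb1, an RNA-editing enzyme that acts on the Htr2c transcript, was singled out after its values were seen. It measured 1540 ± 347 CPM in the VBT in water (SD, n = 10), against 238 ± 17.9 in the VTA and 245 ± 13.8 in S1 (n = 9 each), and 199 ± 44.6 in PrL and 187 ± 23.1 in the NAc (n = 10 each). The VBT exceeded the VTA by a log2 difference of 2.83 ± 0.12 SE (adjusted p of 1.8e-23 by edgeR). Htr2c itself measured 34.8 ± 20.3 CPM in the VBT and 151 ± 19.5 in the VTA. Gene counts hold no information on edited positions. After fentanyl Adarb1 measured 1506 ± 324 CPM in the VBT.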
